A study of Mus musculus with 9 samples.

Results

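The genes described here are those of the insulin-like growth factor 1 (IGF1) axis in the mouse lung: the ligand Igf1, its receptor Igf1r, the growth hormone receptor Ghr, and the binding protein genes Igfbp2, Igfbp3, Igfbp4, Igfbp5, Igfbp6 and Igfbp7. They are 9 of the 27203 gene IDs in the expression table, chosen by name with their values in these libraries already known, so their differences between groups are given as a description with no test. Whole lungs of male C57BL/6 mice aged 6 to 8 weeks were studied in ventilator-induced lung injury (VILI), with 3 mice and 3 libraries in each of 3 groups. All mice were intubated. Mice of both VILI groups were kept under ketamine and xylazine with the muscle relaxant pancuronium and received tidal volumes of 20 ml/kg from a ventilator during 4 hours, and their lungs were taken 0 hours (VILI 0 hours) or 6 hours (VILI 6 hours) after ventilation ended. Control mice were not ventilated, and the sources used here do not say separately which drugs they received. No group was ventilated at a low tidal volume, so stretch, ventilation itself and the drugs given with it cannot be told apart. Levels are FPKM (fragments scaled to transcript length and to the mapped fragments of the library, so that levels of different genes can be set side by side), summed over the transcript rows of a gene.

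IGF1 is a secreted growth and survival factor that acts on cells through the tyrosine kinase receptor encoded by Igf1r. Growth hormone, acting through its receptor Ghr and the JAK2 and STAT5 pathway, is a main inducer of Igf1 in liver, and many tissues, the lung among them, also make IGF1 locally, largely in mesenchymal cells and macrophages. In fluids the factor is carried by IGF-binding proteins, which can hold it away from the receptor or deliver it there, and proteases that cleave them release it. Igfbp7 encodes a related secreted protein that binds IGFs only weakly.

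The VILI 6 hours libraries differed among themselves, and replicate 1 is set apart before the results. The mean root mean square distance of VILI 6 hours replicate 1 over all tested genes, on the log2 scale, was 0.643 to the control libraries and 0.887 to the other VILI 6 hours libraries, so it was closer to control than to its own group. The mean distance of replicate 2 was 0.670 to VILI 0 hours and 0.746 to its own group, and that of replicate 3 was 0.829 and 0.830. These own-group means include the distance to replicate 1, so they do not show how close replicates 2 and 3 were to each other. Replicate 3 was the farthest from control at 0.988. The markers of replicate 1 differed too: the 4 mesothelial markers summed to 88.3 FPKM there and to 30.8 to 44.9 FPKM in the other 8 libraries, and the 5 erythroid markers to 489 FPKM against 3230 to 5420 FPKM. Values without it are given beside the results it moves most. As a check of the tissue, the 6 markers of alveolar type 2 cells summed to 13300 to 17200 FPKM in every library, and the 4 liver markers to at most 0.48 FPKM. The FPKM table holds no read counts and read totals were not used here, so only the spread of 3 libraries shows how precise a level is. Each SE and p-value below rests on the spread within groups, pooled over all 9 libraries in 1 fit. VILI 6 hours replicate 1 therefore also enters the SE of VILI 0 hours against control. For Igf1 that SE was 0.23 with it and 0.16 without it.

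In control lung, Igfbp7 was the most abundant of the 9 genes at a mean level of 269 ± 13.5 FPKM (SD, n = 3). Next came Igfbp5 (74.8 ± 4.38 FPKM) and Igfbp2 (74.0 ± 12.5 FPKM), whose libraries overlapped, followed by Igfbp6, Ghr and Igfbp4 at 61.6, 49.0 and 41.3 FPKM. Igf1r (16.7 ± 0.923 FPKM), Igf1 (15.5 ± 3.63 FPKM) and Igfbp3 (13.6 ± 0.478 FPKM) were lowest and overlapped with their neighbours in this order. Both VILI groups had Igf1 as the gene with the lowest mean level and Igfbp6 as the second highest.

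**Figure D1:**
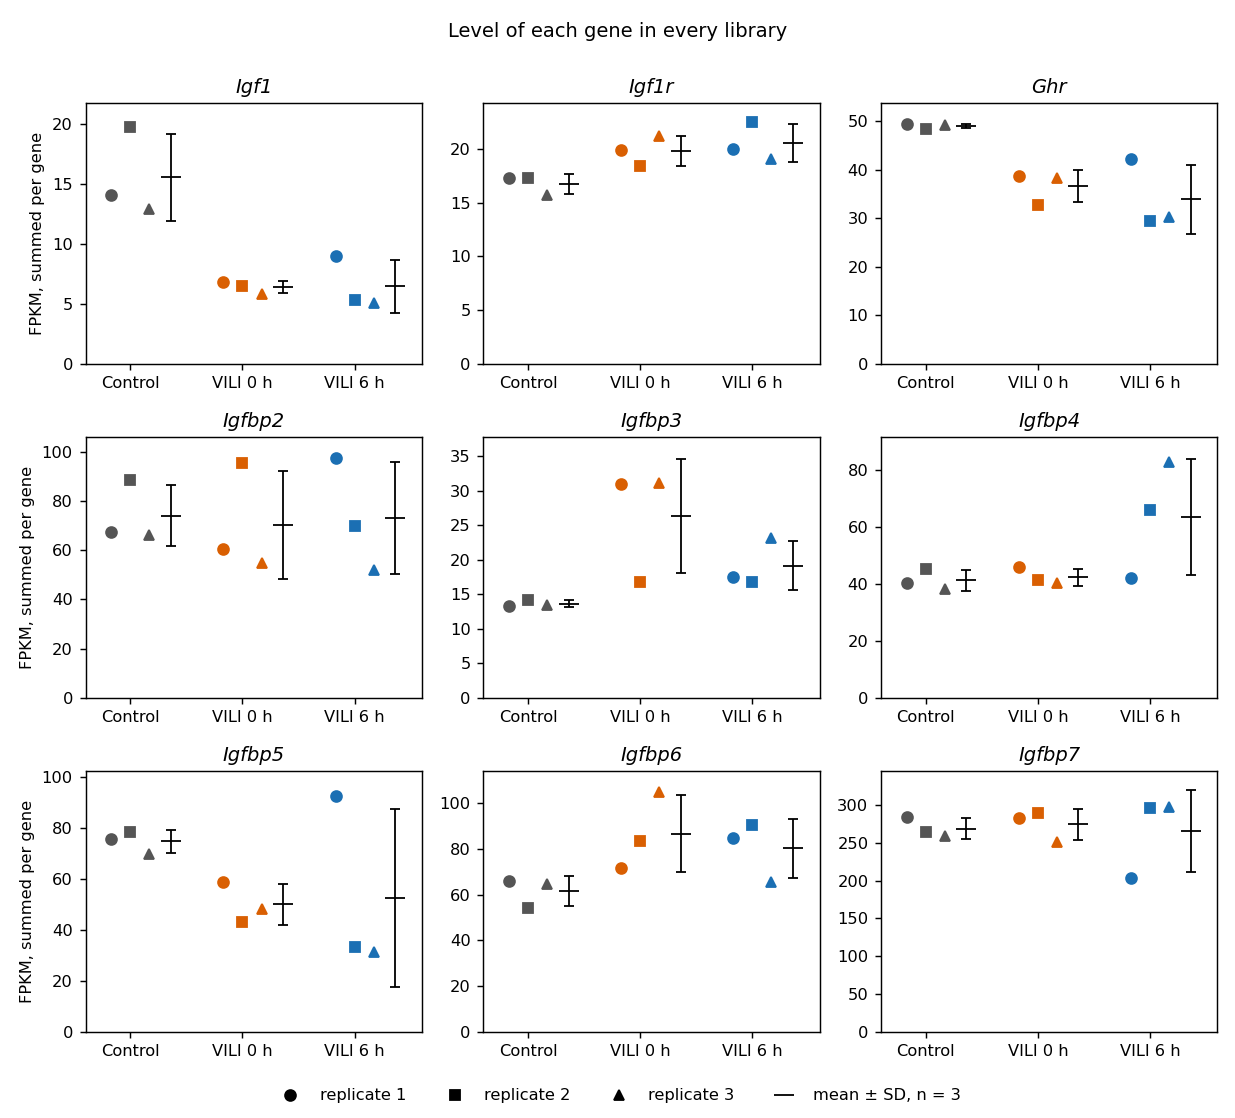
Level of the 9 genes in each library, as FPKM summed per gene on linear axes that start at 0. Each symbol is 1 library, with its shape giving the replicate number, and the bars are the mean and SD of 3 libraries. All 6 VILI libraries lie below the controls for Igf1 and Ghr and above them for Igf1r and Igfbp3, and VILI 6 hours replicate 1 departs from its group for Igfbp4, Igfbp5 and Igfbp7.

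The libraries of 6 of the 9 genes did not overlap with control at VILI 0 hours, 3 above and 3 below, where 33.5% of the 19378 genes tested did not overlap, 12.0% above and 21.6% below. At VILI 6 hours 4 genes did not overlap with control, 2 above and 2 below, where 24.6% of all genes did not, 9.64% above and 15.0% below. Between the VILI groups 0 of the 9 did not overlap, where 12.5% of all genes did not, 6.25% above and 6.28% below. Since the choice of genes used these comparisons, nothing is read from these counts. The median log2 fold change of the 9 genes was 0.03 at VILI 0 hours and −0.04 at VILI 6 hours, and that of all genes was −0.07 and −0.09. Both comparisons share the same 3 control libraries.

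Igf1, the ligand of the axis, lies on the plus strand at chr10:87858265-87937042 (GRCm38) and showed the greatest difference from control among the 9 genes at both times. Its level was 14.0, 19.7 and 12.9 FPKM in the control libraries, 6.81, 6.49 and 5.82 FPKM at VILI 0 hours, and 8.99, 5.31 and 5.06 FPKM at VILI 6 hours. All 6 VILI libraries were below the lowest control, with the 3 VILI 0 hours libraries close to each other and VILI 6 hours replicate 1 nearest to control. The log2 fold change was −1.25 (SE 0.23) at VILI 0 hours and −1.28 (SE 0.23) at VILI 6 hours, and the mean levels were 0.410 and 0.415 of the control mean. Between the VILI groups the log2 difference was −0.03 (SE 0.23). Without VILI 6 hours replicate 1, the log2 fold change at 6 hours was −1.54, and the difference between the VILI groups was −0.29. Leaving out VILI 6 hours replicate 3 instead gave −1.13 and 0.12.

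The table splits Igf1 into 8 transcript rows without transcript names. Row 7 held 76.4% to 93.7% of the gene's FPKM and followed the same pattern, with 12.8, 16.9 and 11.3 FPKM in control, 6.38, 5.64 and 4.93 FPKM at VILI 0 hours, and 7.68, 4.66 and 3.86 FPKM at VILI 6 hours. The lower sum was therefore carried by this row. Row 8 was listed at 0 in all 9 libraries, and row 3 reached 1.61 FPKM in control replicate 2 while it was listed at 0 in control replicate 3. The start of Igf1 overlaps the antisense gene Igf1os over 5117 bases. Whether fragments were counted by strand is not settled in the sources used here, and Igf1os has no row of its own in the data analysed here, so reads of the 2 genes in this stretch cannot be told apart.

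The receptor gene Igf1r (plus strand, chr7:67952827-68233668) was slightly higher after ventilation. Its level was 17.3, 17.3 and 15.7 FPKM in control, 19.9, 18.4 and 21.2 FPKM at VILI 0 hours, and 19.98, 22.5 and 19.1 FPKM at VILI 6 hours. Every VILI library was above every control library, by log2 fold changes of 0.24 (SE 0.10) and 0.29 (SE 0.10). These are small differences, and they depend on scale: centring each library on its median moved the median of all genes by 0.12 and 0.13 on the log2 scale at the 2 times, and gave 0.36 and 0.42 for Igf1r. Ligand and receptor thus stood on opposite sides of control at both times, with or without centring.

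Ghr, the growth hormone receptor gene on the minus strand at chr15:3317760-3583492, was lower. Control libraries were almost equal, at 49.4, 48.5 and 49.1 FPKM. VILI 0 hours libraries had 38.7, 32.8 and 38.3 FPKM, and VILI 6 hours libraries 42.1, 29.4 and 30.2 FPKM. No VILI library reached the control range. The log2 fold changes were −0.42 (SE 0.14) and −0.55 (SE 0.14), or −0.31 and −0.42 after centring, and the second was −0.72 without VILI 6 hours replicate 1. The log2 difference between the VILI groups was −0.13, with −0.29 to −0.03 when libraries were left out in turn. Of its 5 transcript rows, row 4 held 51.0% to 63.1% of the FPKM and row 2 held 22.4% to 42.0%. Both rows were below control in all VILI libraries, row 4 at 26.5 to 29.3 FPKM in control and 15.4 to 23.9 FPKM after VILI, and row 2 at 15.5 to 17.8 FPKM and 7.33 to 14.4 FPKM. Row 5, the third in size, ranged from 1.74 to 4.53 FPKM after VILI and overlapped with the control range of 3.70 to 4.57 FPKM.

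**Figure D2:**
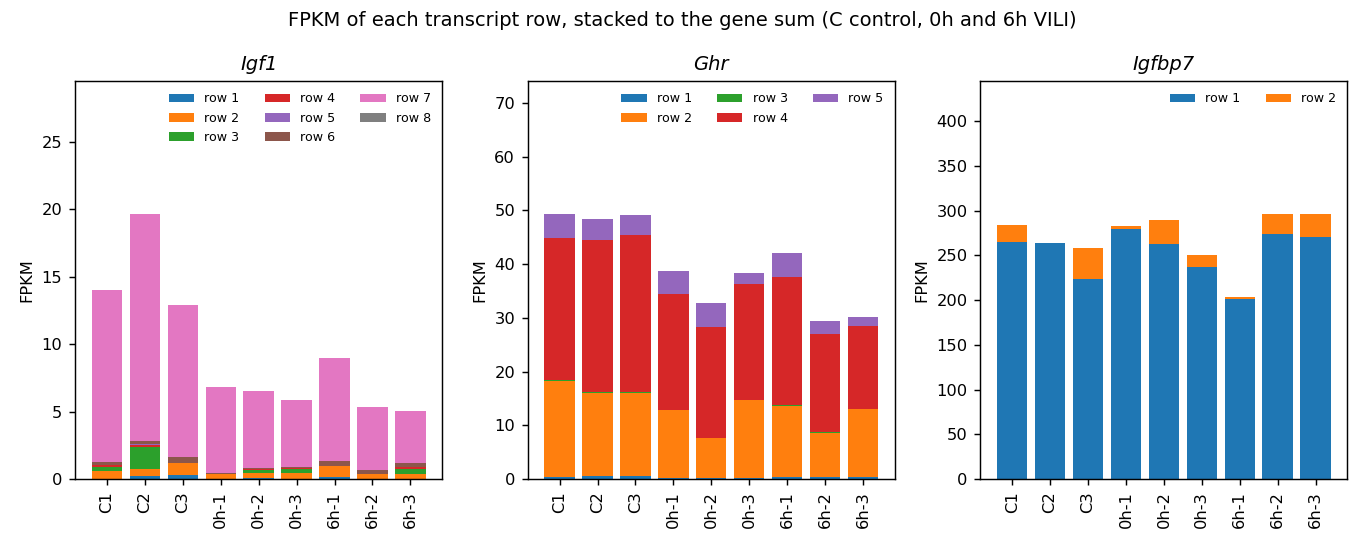
FPKM of each transcript row of Igf1, Ghr and Igfbp7, stacked to the gene sum, with 1 bar per library (C, control; 0h and 6h, VILI 0 and 6 hours) and linear axes that start at 0. A single row carries most of Igf1, rows 2 and 4 carry most of Ghr, and the smaller row of Igfbp7 varies from 0.334 to 34.6 FPKM among the control libraries.

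The 6 binding protein genes did not move together. Igfbp3 and Igfbp6 were higher at VILI 0 hours, Igfbp4 was higher in 2 of 3 libraries at VILI 6 hours, Igfbp5 was lower at VILI 0 hours, and Igfbp2 and Igfbp7 had overlapping groups throughout. Their summed level was nearly constant, at 534 ± 20.4 FPKM in control, 550 ± 19.7 FPKM at VILI 0 hours and 554 ± 17.4 FPKM at VILI 6 hours (SD, n = 3 each), with overlapping groups. Igfbp7 was the largest part of this sum, at mean levels of 269, 275 and 266 FPKM.

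Igfbp3 encodes the main IGF carrier of blood plasma, which forms a ternary complex with IGF and the acid-labile subunit. It lies on the minus strand at chr11:7206086-7213923, 3540 bases from its neighbour Igfbp1, a second binding protein gene that was listed at 0 in all 9 libraries. Control libraries had 13.3, 14.2 and 13.4 FPKM. At VILI 0 hours the level was 31.0, 16.8 and 31.1 FPKM, so 2 libraries were more than double any control and replicate 2 was only just above. After 6 hours it was 17.5, 16.8 and 23.2 FPKM, again above all controls. The log2 fold change was 0.89 (SE 0.23) at VILI 0 hours, with 0.74 to 1.18 when libraries were left out in turn, and 0.47 (SE 0.23) at VILI 6 hours. The VILI groups overlapped, with a log2 difference of −0.42 (SE 0.23) from 0 to 6 hours, which was −0.71 without VILI 0 hours replicate 2 and −0.27 without VILI 0 hours replicate 1 or replicate 3.

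Igfbp4, on the plus strand at chr11:99041244-99054392, encodes a binding protein that inhibits IGF action and is cleaved by the protease PAPP-A. Its level was 40.3, 45.2 and 38.2 FPKM in control and 45.9, 41.3 and 40.2 FPKM at VILI 0 hours, with a log2 fold change of 0.04 (SE 0.21). At VILI 6 hours, replicates 2 and 3 had 66.0 and 82.8 FPKM, above every other library, and replicate 1 had 42.0 FPKM, within the control range. The log2 fold change at 6 hours was 0.57 (SE 0.21) against control and 0.53 (SE 0.21) against VILI 0 hours. Without VILI 6 hours replicate 1 these were 0.84 and 0.80. Leaving out VILI 6 hours replicate 3, the highest library, gave 0.35 and 0.31.

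The promoters of Igfbp3 and Igfbp4 are shown for their rank and for a sequence match. Of the binding protein genes, these 2 had the highest log2 fold changes at 0 and 6 hours. At 6 hours Igfbp6 ranked first without VILI 6 hours replicate 3, at 0.51 against 0.35 for Igfbp4. Igfbp3 ranked first without VILI 6 hours replicate 2, at 0.56 against 0.52 for Igfbp4. A match to TATANA within the last 40 bases before the start was present in 4.85% of all windows. Among the 11 windows of the 9 genes, only those of Igfbp3 and Igfbp4 had one. Each is the 250 bases before the RefSeq start (GRCm38.p6), read along the gene's own strand and taken from chr11:7213924-7214173 on the minus strand and chr11:99040994-99041243 on the plus strand. Capitals mark the bases covered by TATANA on either strand.
Igfbp3: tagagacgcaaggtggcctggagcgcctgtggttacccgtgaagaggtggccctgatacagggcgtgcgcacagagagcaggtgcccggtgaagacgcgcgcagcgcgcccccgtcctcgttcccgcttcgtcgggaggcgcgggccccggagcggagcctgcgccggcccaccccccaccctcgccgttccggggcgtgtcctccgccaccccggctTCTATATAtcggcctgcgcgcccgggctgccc
Igfbp4: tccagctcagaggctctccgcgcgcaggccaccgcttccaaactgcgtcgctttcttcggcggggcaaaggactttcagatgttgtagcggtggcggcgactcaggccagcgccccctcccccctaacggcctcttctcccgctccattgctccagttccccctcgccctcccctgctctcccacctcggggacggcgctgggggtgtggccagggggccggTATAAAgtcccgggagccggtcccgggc
The covered bases lie 32 to 25 bases before the start of Igfbp3 and 28 to 23 bases before that of Igfbp4, and the windows hold 73.2% and 69.2% G and C. TATANA on either strand was present anywhere in 4 of the 11 windows, those of Ghr and Igfbp6 being the other two, and in 22.6% of 32851 RefSeq promoter windows of this length. The other motifs searched on both strands were TTCNNNGAA, a form bound by STAT factors and present in 7.02% of all windows, GTAAACA, a form bound by forkhead factors and present in 3.17%, and GGGCGG, the GC box, present in 32.7%. The first 2 had 0 matches in the 11 windows, which says only that these letters are not there. GC boxes were found in windows of Igfbp2, Igfbp7, Igf1r and Ghr.

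Igfbp5, a binding protein found in connective tissue and extracellular matrix, lies on the minus strand at chr1:72857932-72874884. It and Igfbp2 are neighbours 5458 bases apart that point towards each other. Control libraries had 75.9, 78.6 and 70.0 FPKM of Igfbp5, and VILI 0 hours libraries 58.8, 43.3 and 48.2 FPKM, all below control, with a log2 fold change of −0.59 (SE 0.35). At VILI 6 hours, replicates 2 and 3 had 33.5 and 31.2 FPKM, the lowest of all, and replicate 1 had 92.8 FPKM, the highest of all. The groups therefore overlapped, and the log2 fold change at 6 hours was −0.70 (SE 0.35) with that library and −1.21 without it. It was −0.42 without VILI 6 hours replicate 3 and −0.47 without replicate 2. Between the VILI groups the log2 difference was −0.11, with −0.62 to 0.17 when libraries were left out in turn. The same library held the highest mesothelial sum, given above, with Msln at 50.1 FPKM against 17.6 to 27.5 FPKM in the others. The part of these markers in the Igfbp5 values was not tested.

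Igfbp6, whose product prefers IGF2 over IGF1, lies on the plus strand at chr15:102144362-102149511. It had 66.1, 54.1 and 64.5 FPKM in control, 71.7, 83.4 and 104.9 FPKM at VILI 0 hours, and 84.9, 90.3 and 65.7 FPKM at VILI 6 hours. The 3 VILI 0 hours libraries were above control, with a log2 fold change of 0.48 (SE 0.17). At 6 hours replicate 3 was within the control range, and the log2 fold change was 0.37 (SE 0.17).

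Igfbp2, on the plus strand at chr1:72824503-72852474, encodes a binding protein made by alveolar type 1 cells among others. It varied within groups more than between them, at 67.5, 88.4 and 66.1 FPKM in control, 60.3, 95.2 and 54.7 FPKM at VILI 0 hours, and 97.3, 69.9 and 52.0 FPKM at VILI 6 hours. Its log2 fold changes of −0.11 and −0.05 (SE 0.26 each) became 0.01 and 0.08 after centring, and the second was −0.28 without VILI 6 hours replicate 1 and 0.17 without replicate 3. Both libraries above 95 FPKM also had the highest sums of the 6 alveolar type 1 markers, 1470 FPKM in VILI 0 hours replicate 2 and 1510 FPKM in VILI 6 hours replicate 1, where the other 7 libraries had 1010 to 1380 FPKM. Ager and Hopx made up most of these sums, and the single markers did not all go the same way. In VILI 0 hours replicate 2, Ager, Hopx and Cav1 were above all controls and Rtkn2 was within their range. Aqp5 (57.7 FPKM) and Akap5 (53.7 FPKM) were below all controls there. In VILI 6 hours replicate 1, Cav1 (91.6 FPKM) was below all controls and the other markers were above them. Control replicate 2, the next highest for Igfbp2, had 1180 FPKM of these markers, within the range of the others, and the part of the markers in the Igfbp2 values was not tested.

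Igfbp7 lies on the minus strand at chr5:77349240-77408041, where it overlaps Polr2b by 85 bases at one end and the antisense gene Gm34648 within. Its level was 284, 264 and 258 FPKM in control, 283, 289 and 251 FPKM at VILI 0 hours, and 204, 297 and 297 FPKM at VILI 6 hours. The log2 fold changes were 0.03 and −0.04 (SE 0.15 each), and the second became 0.14 without VILI 6 hours replicate 1, which was the lowest library. Row 1 held at least 86.6% of the FPKM.

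**Figure D3:**
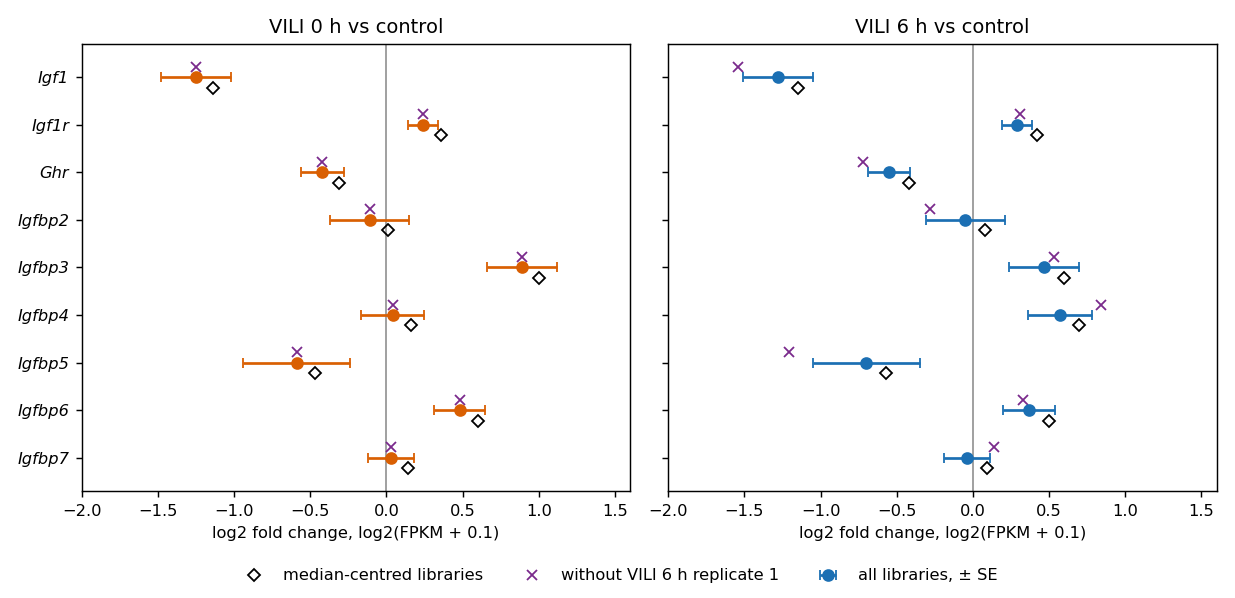
Log2 fold change of each gene against control on log2(FPKM + 0.1), at VILI 0 hours (left) and VILI 6 hours (right). Filled points and bars are the fit over all 9 libraries and its SE, open diamonds the same fit on median-centred libraries, and crosses the fit without VILI 6 hours replicate 1. Leaving out that library moves Igfbp5 from −0.70 to −1.21 and Igf1 from −1.28 to −1.54 at 6 hours, and centring shifts each gene to the right.

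Set against the ligand, the binding proteins had more transcript per unit of Igf1 after ventilation. The summed FPKM of the 6 genes was 27.7 to 39.7 times that of Igf1 in control, 80.9 to 91.1 times at VILI 0 hours and 59.9 to 109.1 times at VILI 6 hours. Neither VILI group overlapped with control. The largest part of the summed FPKM was Igfbp7, whose product binds IGFs only weakly. Each binding protein gene over Igf1 taken alone was also above control at both times. The FPKM ratio of Igfbp5 to Igf1 was 4.94 ± 0.822 in control, 7.86 ± 1.05 at VILI 0 hours and 7.60 ± 2.36 at VILI 6 hours, and that of Igfbp3 to Igf1 was 0.903 ± 0.165, 4.16 ± 1.42 and 3.23 ± 1.32 (SD, n = 3). Such ratios carry the lower Igf1 level in every case, and they compare RNA, not protein.

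Without VILI 6 hours replicate 1, an alternative chosen after seeing the data, 7 of the 9 genes did not overlap with control at 6 hours instead of 4, with Igf1r, Igfbp3, Igfbp4 and Igfbp7 above and Igf1, Ghr and Igfbp5 below. Of all genes tested, 56.8% did not overlap under the same rule, 19.6% above and 37.2% below. Between the VILI groups, 5 genes did not overlap instead of 0, beside 34.9% of all genes (13.8% higher and 21.1% lower), with Igfbp4 and Igfbp7 higher and Igf1, Ghr and Igfbp5 lower at 6 hours.

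The other genes of the pathway were read from a list of 53 genes, of which 50 passed the filter on low values. At VILI 0 hours, 12 had an unadjusted P under 0.05 in limma, 10 higher and 2 lower than control, beside 16.2% of the 19378 genes tested, 6.81% higher and 9.35% lower. At VILI 6 hours, 16 did, 11 higher and 5 lower, beside 20.4% of all genes, 8.17% higher and 12.2% lower. From 0 to 6 hours, 6 did, 4 higher and 2 lower, beside 10.0% of all genes, 5.06% higher and 4.94% lower. After Benjamini-Hochberg adjustment over all genes, 0 of the 50 remained in limma in each comparison, where 0.284%, 0.702% and 0.0% of all genes did, so no gene of this list is past the adjusted threshold. The list's median log2 fold changes were 0.02, 0.04 and −0.02, against −0.07, −0.09 and −0.02 for all genes. The first count was 7 without control replicate 2. The second was 10 without control replicate 1 and 8 without control replicate 2 or control replicate 3. Without VILI 6 hours replicate 1 the third was 16 and the second 25. With each of the 9 libraries left out in turn, 6 of the 12 genes called at VILI 0 hours were past the unadjusted threshold every time (Stc1, Stc2, Socs1, Ptpn1, Foxo3 and Igf2bp2). The same held for 8 of the 16 genes called at VILI 6 hours, among them Socs3, Cish, Ptpn1, Ptpn11, Pik3r1, Eif4ebp1 and Igf2bp2, and for 3 of the 6 called between the VILI groups (Stc1, Socs1 and Stat5a). Every other call below lost the threshold without at least 1 library.

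Among ligands and receptors, Igf2, the second ligand, was low and even at 2.15 to 3.23 FPKM over the 9 libraries. Its clearance receptor gene Igf2r had 24.4, 22.7 and 22.2 FPKM as mean levels in control and at the 2 times after ventilation, with log2 fold changes of −0.10 and −0.14 (SE 0.14 each, unadjusted P 0.476 and 0.332 in limma). The second was −0.23 without VILI 6 hours replicate 1 and −0.01 without replicate 3. The insulin receptor gene Insr, a relative of Igf1r, had 19.4 to 20.2 FPKM in control and 21.2 to 24.5 FPKM at VILI 0 hours, higher by a log2 of 0.21 (SE 0.09, unadjusted P 0.0471, adjusted p 0.303 in limma). Its 6 hours libraries were also above control, at 21.4 to 23.7 FPKM, with an unadjusted P of 0.0651. Igfals, the acid-labile subunit gene that is mainly a liver product, was below 1 FPKM in every library and lower at VILI 0 hours by a log2 of −0.86 (SE 0.28, unadjusted P 0.0126, adjusted p 0.188 in limma).

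Of the proteases that cleave binding proteins and their inhibitors, the 2 stanniocalcin genes stood out. Stanniocalcins bind and inhibit PAPP-A, the protease that cleaves the Igfbp4 product. Stc1 had 3.25, 3.04 and 3.01 FPKM in control, 9.86, 4.81 and 4.73 FPKM at VILI 0 hours, and 1.58, 2.16 and 1.90 FPKM at VILI 6 hours. It was thus above all controls at the first time, by a log2 of 0.95 (SE 0.27, unadjusted P 0.00612 in limma) that was 0.61 without VILI 0 hours replicate 1, and below them at the second, by −0.70 (SE 0.27, unadjusted P 0.0279). Stc2 was higher at both times, by a log2 of 0.83 and 0.64 (SE 0.26 each, unadjusted P 0.00986 and 0.0340 in limma), from a control mean of 0.665 FPKM. Pappa itself was at 0.761 to 0.878 FPKM in control and at 0.434, 2.40 and 2.65 FPKM at VILI 6 hours, with an unadjusted P of 0.204 in limma. The 2 libraries with high Igfbp4, VILI 6 hours replicates 2 and 3, were also those with high Pappa. In these 2 libraries 56.8% of all genes did not overlap with control, and Pappa was named after its values were seen.

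Within growth hormone signalling, 4 of 9 genes were past the threshold at each time, 3 higher and 1 lower at VILI 0 hours and 4 higher at VILI 6 hours, beside 16.2% and 20.4% of all genes. Socs3, a feedback inhibitor of cytokine receptors that is also induced by inflammatory cytokines, had 9.82 to 12.2 FPKM in control, 22.7 to 44.7 FPKM at VILI 0 hours, and 25.5, 100.7 and 158.7 FPKM at VILI 6 hours. Its log2 fold changes were 1.50 (SE 0.56) and 2.74 (SE 0.56), with adjusted p of 0.230 and 0.0625 in limma, and the second was 3.50 without VILI 6 hours replicate 1. Socs2, the member of that family most often used as a growth hormone response gene, had 46.4 to 52.6 FPKM in control, 56.6 to 61.3 FPKM at VILI 0 hours, and 39.6, 73.3 and 58.1 FPKM at VILI 6 hours, with an unadjusted P of 0.200 and 0.385. Ptpn1 and Ptpn11, both tyrosine phosphatases of this pathway, were higher at both times, Ptpn1 by a log2 of 0.68 and 0.97 (SE 0.22 each) and Ptpn11 by 0.26 and 0.34 (SE 0.10 each). Cish, a STAT5 target, was higher at 6 hours by 0.91 (SE 0.26, adjusted p 0.123 in limma). Socs1 was lower at VILI 0 hours by a log2 of −0.79 (SE 0.23), and it was higher at 6 than at 0 hours by 1.15 (SE 0.23, unadjusted P 7.23e-04, adjusted p 0.180 in limma). Stat5a was likewise higher at 6 than at 0 hours, by 0.59 (SE 0.19).

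The 2 main receptor adaptor genes differed. Irs2 had 9.65 to 11.8 FPKM in control and 17.7 to 22.4 FPKM at VILI 0 hours, higher by a log2 of 0.89 (SE 0.31, unadjusted P 0.0171, adjusted p 0.206 in limma). The VILI 6 hours libraries had 25.6 and 24.9 FPKM in replicates 2 and 3 and 10.1 FPKM in replicate 1, within the control range, and the log2 fold change at 6 hours went from 0.80 to 1.24 without replicate 1. Irs1 had 9.11 to 10.6 FPKM in control and 9.34 to 11.3 FPKM at VILI 0 hours, and then 8.83, 6.69 and 3.42 FPKM at VILI 6 hours, lower by a log2 of −0.72 (SE 0.28, unadjusted P 0.0315, adjusted p 0.206 in limma). That value was −0.34 without VILI 6 hours replicate 3, which held the lowest level, and −1.01 without replicate 1. Shc1, an adaptor to the MAP kinase arm, was higher at 6 hours by 0.29 (SE 0.11).

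Downstream, 1 of 15 genes from PI3 kinase to mTOR was past the threshold at VILI 0 hours and 4 at VILI 6 hours, beside 16.2% and 20.4% of all genes. Eif4ebp1, a repressor of translation that mTOR inactivates, was higher at both times, by a log2 of 0.35 and 0.71 (SE 0.16 each, adjusted p 0.305 and 0.0723 in limma), and Akt1 was higher at 6 hours by 0.23 (SE 0.09). Pik3r1, a regulatory subunit gene of PI3 kinase, was lower at 6 hours by −0.35 (SE 0.09). Of the MAP kinase arm, Mapk3 was lower at 6 hours by −0.32 (SE 0.14, unadjusted P 0.0430 in limma) and by −0.17 without VILI 6 hours replicate 3, and the other 3 genes were not past the threshold. Foxo3, a forkhead factor that AKT keeps out of the nucleus, had 28.0 to 29.3 FPKM in control, 58.1 to 72.0 FPKM at VILI 0 hours, and 26.8, 69.3 and 55.7 FPKM at VILI 6 hours. Its log2 fold change at VILI 0 hours was 1.16 (SE 0.29, unadjusted P 0.00262, adjusted p 0.104 in limma), and its 6 hours libraries overlapped with control only through replicate 1. The log2 fold change at 6 hours was 0.71, with 1.11 without replicate 1 and 0.43 without replicate 2. Igf2bp2, an RNA-binding protein that binds Igf2 messenger RNA, was higher at both times, by a log2 of 0.81 and 0.95 (SE 0.23 each, adjusted p 0.141 and 0.0911 in limma).

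**Figure D4:**
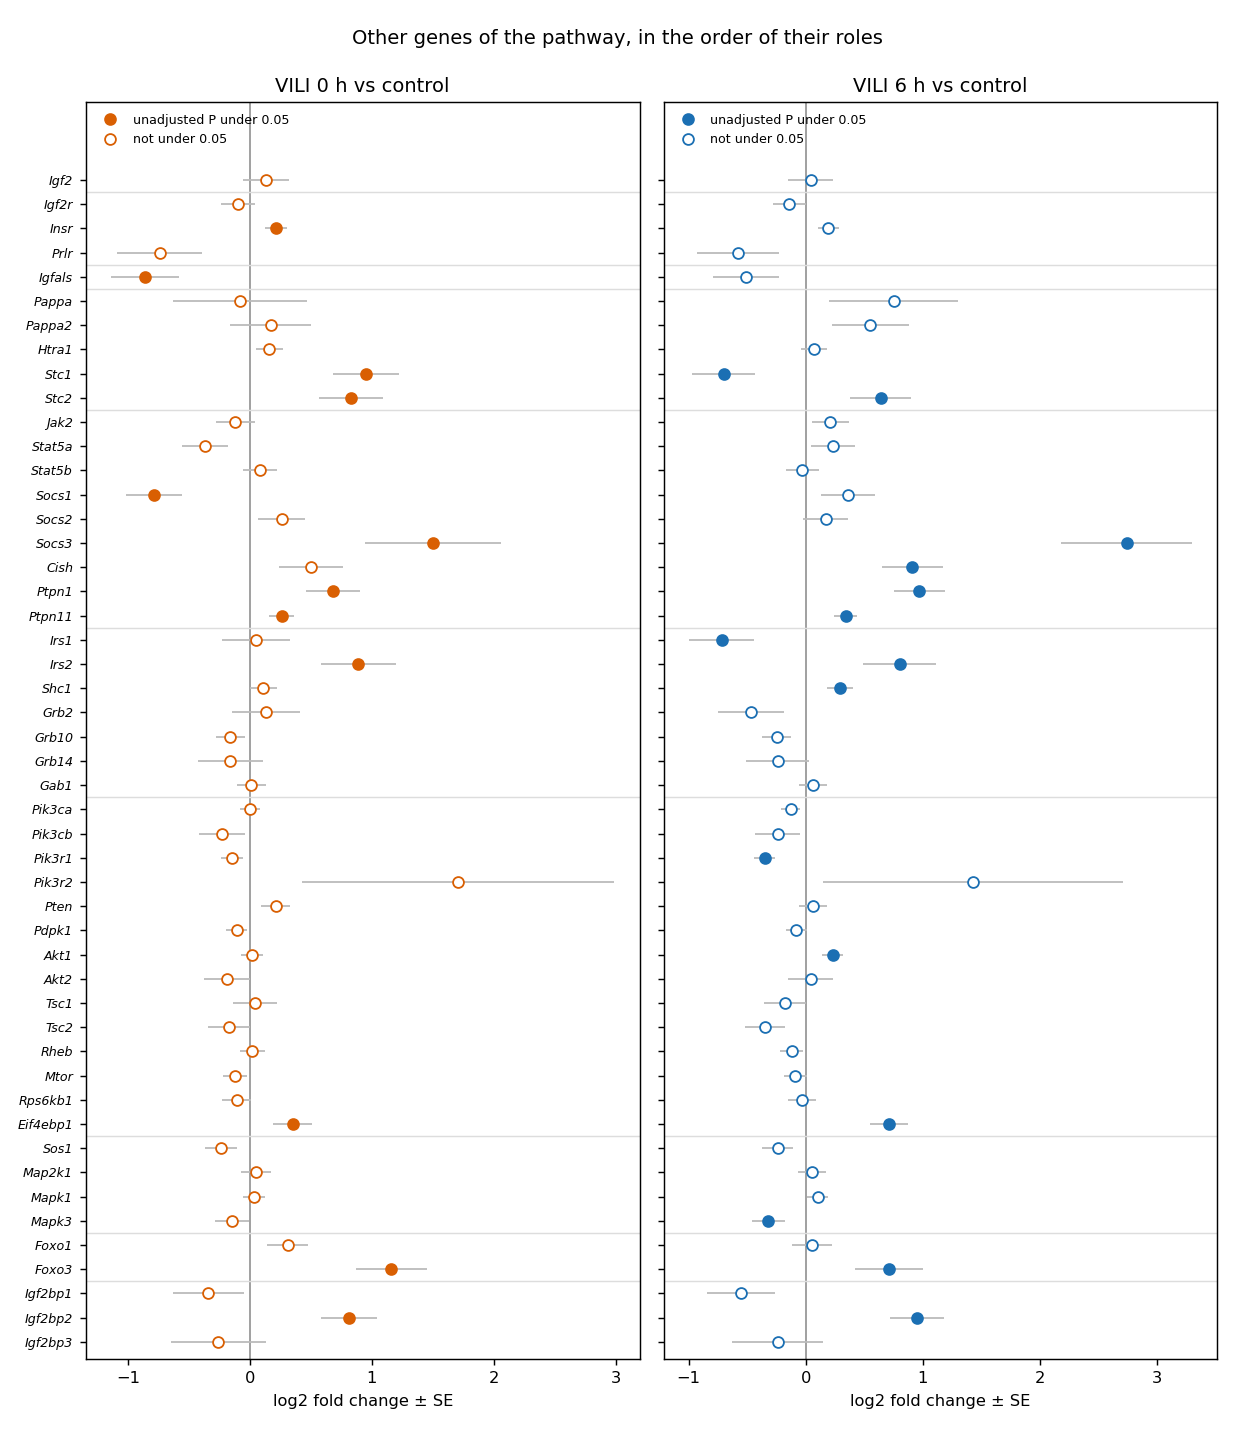
Log2 fold change against control, on log2(FPKM + 0.1), of the other pathway genes reported here that passed the filter on low values, at VILI 0 hours (left) and VILI 6 hours (right), grouped by role from ligand at the top to RNA-binding proteins at the bottom. Points are estimates, bars their SE, and filled points have an unadjusted P under 0.05. Socs3 lies farthest to the right at 6 hours among the filled points, and Stc1 is filled on opposite sides of 0 at the 2 times.

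These are values of whole lung, in which fewer cells of a type and less RNA per cell cannot be told apart. The 8 fibroblast markers summed to 840 to 1050 FPKM in control, 661 to 789 FPKM at VILI 0 hours and 668 to 887 FPKM at VILI 6 hours, with median log2 fold changes of −0.34 and −0.45 beside −1.25 and −1.28 for Igf1. At VILI 0 hours, 3 of the 8 were lower and 1, Dcn, higher at an unadjusted P under 0.05 in limma, and at VILI 6 hours 4 were lower. Of all genes tested, 6.81% were higher and 9.35% lower at VILI 0 hours by this rule, and 8.17% and 12.2% at VILI 6 hours. The 7 neutrophil markers summed to 47.6 to 56.0 FPKM in control, 551 to 986 FPKM at VILI 0 hours and 460 to 1890 FPKM at VILI 6 hours, and all 7 were higher at both times at an unadjusted P under 0.05 in limma, beside the same shares of all genes. The 7 markers of interstitial macrophages and monocytes summed to 83.9 to 86.2, 91.7 to 129 and 118 to 298 FPKM. The part of these markers in the levels of Igf1, Ghr and the binding protein genes was not tested.

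By profile, the 5 genes most like Igf1 among 14107 genes with a mean level of at least 1 FPKM were Gm37626, Gm12216, Cybrd1, Abhd11os and Atp13a4. Likeness was the root mean square difference of centred log2(FPKM + 0.1) profiles over the 9 libraries, which was 0.142, 0.147, 0.160, 0.192 and 0.205 in that order. Cybrd1, a plasma membrane ferric reductase gene, had means of 6.59 ± 0.237 FPKM in control, 2.95 ± 0.281 FPKM at VILI 0 hours and 3.11 ± 1.01 FPKM at VILI 6 hours (SD, n = 3). As for Igf1, its highest VILI library was VILI 6 hours replicate 1, at 4.27 FPKM.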

How the data were processed

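Total lung RNA of 9 mice was sequenced after ribosomal RNA depletion. The kit and sequencer in the labels differ from those in the study's methods, and the strand setting used for counting is not given in the sources used here. The authors discarded reads that held adapter, poly-N or poor base calls, mapped the rest with TopHat2 2.0.9 (Bowtie2 2.0.6) to GRCm38, assembled transcripts with Scripture and Cufflinks, and deposited FPKM values from Cuffdiff 2.1.1. The deposited FPKM table holds 60108 transcript rows without transcript IDs, column sums run from 366360 to 388459 FPKM, and read counts were not used here.

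Rows were summed to 27203 gene IDs. Of 23713 Ensembl IDs, 23503 matched GENCODE M21 (GRCm38), which gave names and positions. Groups were taken from the labels. Fold changes, SE and P were computed in R 4.3.3 by limma 3.58.1, with a mean-variance trend in eBayes, from log2(FPKM + 0.1) of the 19378 genes with a mean of at least 0.1 FPKM, in 1 fit of all 9 libraries with group as the factor, and p-values were adjusted by the Benjamini-Hochberg method. A fold change on this scale understates that of low genes. The fit was tested on simulated data. The 9 genes, pathway list and marker lists were chosen with earlier results of these data known. Named pathway genes were those with an unadjusted P under 0.05 and groups that did not overlap, plus Igf2, Igfbp1, Igfals, Insr, Igf2r, Socs2, Irs1 and Irs2. Of the named pathway genes, 1 is not reported here, though the list's counts hold it. Pappa was named after its values were seen, and the 5 genes most like Igf1 were taken among genes with a mean of at least 1 FPKM. Alternatives were pseudocounts of 0.01 and 1, the replicate number as a block, a mean of at least 1 FPKM, libraries centred on their median, no filter, eBayes with no trend, fits of only the 6 libraries of a comparison, for the 9 genes the transcript row with the highest mean, and each library left out. Promoter sequences are from RefSeq (GRCm38.p6), where all 9 genes were found.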

Additional observations from a re-analysis of the deposited data

Results flagged for a closer look

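Stc1, a stanniocalcin gene whose product inhibits the protease PAPP-A, was singled out because every library of VILI 0 hours lay above control and every library of VILI 6 hours below it. The mean level was 3.10 FPKM in control, 6.46 FPKM at VILI 0 hours and 1.88 FPKM at VILI 6 hours. From 0 to 6 hours the log2 fold change was −1.65 (SE 0.27), and it was −1.54 without VILI 6 hours replicate 1. Without VILI 0 hours replicate 1, the highest library, it was −1.31, and the log2 fold change at VILI 0 hours against control went from 0.95 to 0.61. These values are a description, since the choice of the gene fixed the direction between the VILI groups, and no P is given for it here. Groups of 3 libraries are too small for a test of single outlying samples.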

How the results depend on the processing

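Over all genes, 3130 (VILI 0 hours against control), 3952 (VILI 6 hours against control) and 1938 (VILI 6 hours against VILI 0 hours) had an unadjusted P under 0.05 in limma, and 55, 136 and 0 an adjusted p under 0.05. Fitting only the 6 libraries compared gave 5094 and 1210 at the unadjusted threshold for VILI 0 hours against control and for VILI 6 hours against VILI 0 hours, 1597, 36 and 1 after adjustment in the order above, and 3 pathway genes instead of 6 between the VILI groups. The adjusted counts against control were 1 and 75 with no filter and 20 and 41 with eBayes without a trend, which gave 2 between the VILI groups. A pseudocount of 1 gave 15 at VILI 0 hours. The cause of these shifts was not tested. With 1 library left out, unadjusted counts ran from 1979 to 4493, 2543 to 7526 and 1407 to 4350, adjusted counts from 1 to 1343, 0 to 4512 and 0 to 356, and pathway counts from 7 to 17, 8 to 25 and 4 to 16. Each highest count came without VILI 6 hours replicate 1. Among the called genes, the share that was higher went from 42.1% to 61.2% at VILI 0 hours and from 40.1% to 58.1% at VILI 6 hours after median centring.

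The replicate number as a block left 10 and 43 genes past the adjusted threshold at VILI 0 hours and VILI 6 hours. Deviations of same-numbered libraries from their group means correlated at −0.221 to 0.0175, so the numbers pair nothing in these data.

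Of 486 recomputed fold changes of the 9 genes (27 results under 18 settings), 5 moved by more than 1 SD, all under median centring. That count does not rank shifts by size. Leaving out VILI 6 hours replicate 1 moved Igfbp5 at 6 hours from −0.70 to −1.21, which is not in the count. Centring moved Igf1r at VILI 0 hours from 0.24 to 0.36, which is. Sign changed in 24, within 11 results near 0: those of Igfbp2 in each comparison, Igfbp4 and Igfbp7 at VILI 0 hours, Igfbp7 at VILI 6 hours, and Igf1, Igf1r, Igfbp5, Igfbp6 and Igfbp7 between the VILI groups. Igf1, Ghr, Igf1r, Igfbp3, Igfbp5 and Igfbp6 kept their direction against control under all 18 settings at both times, though the groups of Igfbp5 and Igfbp6 overlapped with control at 6 hours.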

Other observations

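The remaining marker lists are given as counts of genes with an unadjusted P under 0.05 in limma against control, since these lists were read beside the IGF1 axis. Of all genes tested, 16.2% had such a P at VILI 0 hours and 20.4% at VILI 6 hours, and most of the counts that follow lie near those shares, so nothing is read from them. At VILI 0 hours, 4 of 6 alveolar macrophage markers were higher (summed level 228 to 312 FPKM in control and 369 to 445 FPKM after ventilation), and 1 was higher after 6 hours. Of the 7 interstitial macrophage and monocyte markers, 0 passed at VILI 0 hours and 4 were higher at VILI 6 hours. The 7 endothelial markers had 1 higher and 1 lower at VILI 0 hours and 2 lower at VILI 6 hours, the 6 smooth muscle and pericyte markers 1 lower at each time, and the 4 B cell markers 1 and then 3 lower. Of the 6 alveolar type 1 markers 1 was higher at each time. For the 6 alveolar type 2, the 6 club and ciliated and the 4 mesothelial markers the counts were 0 at VILI 0 hours and 1 at VILI 6 hours, lower for alveolar type 2 and higher for the other 2 lists. The 4 T cell genes in the table, the 5 erythroid, the 5 cardiac muscle and the single tested liver gene gave 0 against control at both times. At VILI 0 hours the libraries of all 5 erythroid genes nonetheless lay above control, with sums of 4920 to 5420 FPKM against 3230 to 4180 FPKM, where 33.5% of all genes did not overlap and 12.0% lay above. The 5 genes share 1 cell type and are not independent, and the 6 hours group held the low library with 489 FPKM. The T cell sum was 6.09 to 21.3 FPKM and the cardiac sum 122 to 270 FPKM over the 9 libraries.

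Of the genes most like Igf1, 2 more are given with their values. Gm12216 had mean levels of 12.7 ± 1.64 FPKM in control, 5.55 ± 0.623 FPKM at VILI 0 hours and 5.99 ± 2.52 FPKM at VILI 6 hours, and Atp13a4 had 2.67 ± 0.0910, 0.982 ± 0.177 and 1.14 ± 0.581 FPKM (SD, n = 3). Both were chosen for their likeness, so their difference from control was fixed by that choice.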
